A study of Homo sapiens with 10 samples.

Results

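The hedgehog pathway reads a secreted ligand at the cell surface and passes the signal on to the GLI zinc finger transcription factors. Without ligand, the receptor PTCH1 holds the transducer SMO inactive, and the adaptor SUFU keeps the GLI proteins out of the nucleus or lets them be cut to repressors. Ligand bound to PTCH1 frees SMO, and the active GLI proteins switch on targets that include PTCH1, HHIP and GLI1 themselves. In pancreatic carcinoma the pathway is known both for ligand made by the tumour cells and for GLI1 activity that does not pass through SMO. The 9 genes described here are the receptor PTCH1, the ligand-binding inhibitor HHIP, the transducer SMO, the co-receptors GAS1 and CDON, the inhibitor SUFU and the factors GLI1, GLI2 and GLI3. They were chosen by name, and each was represented by the brightest transcript cluster that carried its symbol. All 9 were found among the 20961 transcript clusters with a gene symbol, with 1 cluster each.

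The expression profiles were of Panc1, an established human pancreatic carcinoma line, collected 48 h after infection with adenovirus. Every group, the empty virus included, was infected at the same stated multiplicity of infection, the ratio of virus to cells. The study asked which genes depend on each of the chromatin partners that KLF11, a Krüppel-like zinc finger factor, can recruit. The 5 groups, with 2 Affymetrix Human Gene 1.0 ST arrays each, received an empty adenovirus (EV), wild type KLF11, or KLF11 carrying A347S, Δ486 or EAPP. The A347S change lies in the proline-rich domain that binds WD40 proteins, Δ486 is a deletion that uncouples the HP1 and histone methyltransferase system, and EAPP disrupts the Sin3 and histone deacetylase interaction. All constructs were tagged and driven by a viral promoter in cells that also carry their own KLF11, so each group is an overexpression in 1 cell line. According to the methods and the extraction notes, the arrays of a group are technical duplicates of RNA pooled from 3 cultures, although the sample titles number them as biological replicates. The p-values therefore measure the spread between arrays, which may be technical alone. In such bulk RNA, fewer cells that express a gene and less RNA per cell cannot be told apart.

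The KLF11 cluster read 8.37 and 7.75 log2 units on the EV arrays and between 8.68 and 8.88 on the other 8 arrays, so every array of KLF11 or a mutant lay above both EV arrays. It is unknown here which of its probes read the introduced copy. Array medians were 6.81 to 6.87, and both arrays of a group correlated at 0.996 to 0.997 across clusters. The cells carry an epithelial label. Of 6 epithelial markers, the keratins KRT8, KRT18 and KRT19 stood at the 99.6th, 99.8th and 92.0th percentiles of brightness over all clusters, and 1, the E-cadherin gene CDH1, lay below the 25th. Of 3 mesenchymal markers, VIM stood at the 99.4th percentile and CDH2 at the 18.9th. Below the 25th percentile were also 3 of 4 leukocyte markers, all but CD68 at the 89.0th, 2 of 6 stellate cell or fibroblast markers, which ran from the 2.07th to the 71.3rd, 1 of 3 acinar, 2 of 2 islet and 3 of 3 endothelial markers.

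KLF11 binds promoters, and the 250 bases before annotated starts of the members were read on the gene's strand from RefSeq, assembly GRCh38.p14. The paper places most of its KLF11 binding peaks farther from the start than such windows reach. The table used here held 14 such windows for 7 of the 9 members, with none for GLI1 or GLI3. They were searched on both strands for CCCCGC and CCCCAC, the forms of the site described for KLF11, and for TGGGTGGTC, the GLI site. Of the 14 windows, 11 held either KLF11 form. Of all 35116 promoter windows of the same length, 54.1% held one, 39.3% for CCCCGC and 30.3% for CCCCAC, and the difference was not tested. The GLI site occurred in 1 of the 14 windows and in 0.199% of all windows. The windows printed below are those of PTCH1 with the GLI site and with the most KLF11 forms, and 1 each of GLI2 and CDON. GLI2 and CDON are the members with the largest values with EAPP against EV. For both, the window with the most KLF11 forms is shown, and the other GLI2 window held 0. Capitals mark every match on either strand, and adjoining matches run together.
PTCH1, GLI site, chr9:95509267-95509516, minus strand: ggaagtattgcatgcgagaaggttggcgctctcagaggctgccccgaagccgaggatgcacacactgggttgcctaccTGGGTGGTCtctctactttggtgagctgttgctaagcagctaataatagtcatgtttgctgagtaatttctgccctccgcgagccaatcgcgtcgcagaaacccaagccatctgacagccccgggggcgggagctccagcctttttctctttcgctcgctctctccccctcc
PTCH1, KLF11 forms, chr9:95516972-95517221, minus strand: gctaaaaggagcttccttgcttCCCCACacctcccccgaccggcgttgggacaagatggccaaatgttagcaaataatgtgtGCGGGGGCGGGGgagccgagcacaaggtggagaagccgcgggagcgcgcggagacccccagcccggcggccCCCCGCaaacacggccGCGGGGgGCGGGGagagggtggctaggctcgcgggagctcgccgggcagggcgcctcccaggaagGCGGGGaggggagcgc
GLI2, chr2:120735618-120735867, plus strand: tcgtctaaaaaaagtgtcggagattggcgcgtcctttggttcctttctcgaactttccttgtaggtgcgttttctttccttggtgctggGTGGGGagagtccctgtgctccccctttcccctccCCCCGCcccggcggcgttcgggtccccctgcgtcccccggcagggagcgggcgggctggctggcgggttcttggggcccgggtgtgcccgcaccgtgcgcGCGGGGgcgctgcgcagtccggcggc
CDON, chr11:126063302-126063551, minus strand: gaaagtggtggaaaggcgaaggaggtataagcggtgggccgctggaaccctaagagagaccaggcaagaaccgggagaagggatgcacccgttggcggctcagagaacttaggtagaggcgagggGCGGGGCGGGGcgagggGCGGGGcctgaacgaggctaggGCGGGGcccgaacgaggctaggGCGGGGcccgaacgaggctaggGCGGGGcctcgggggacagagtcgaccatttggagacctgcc

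The match to the GLI site in PTCH1 lay at positions -172 to -164 from its start, in a window with 0 matches to either KLF11 form. That window is downstream of the other PTCH1 start shown, and thus inside the gene as the longer transcript defines it. The window at the other start held 6 matches to CCCCGC and 1 to CCCCAC. GLI2 had 2 and 1 at the start shown, and CDON had 6 and 0. A match here describes letters in the window and is not evidence of binding.

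**Figure D1:**
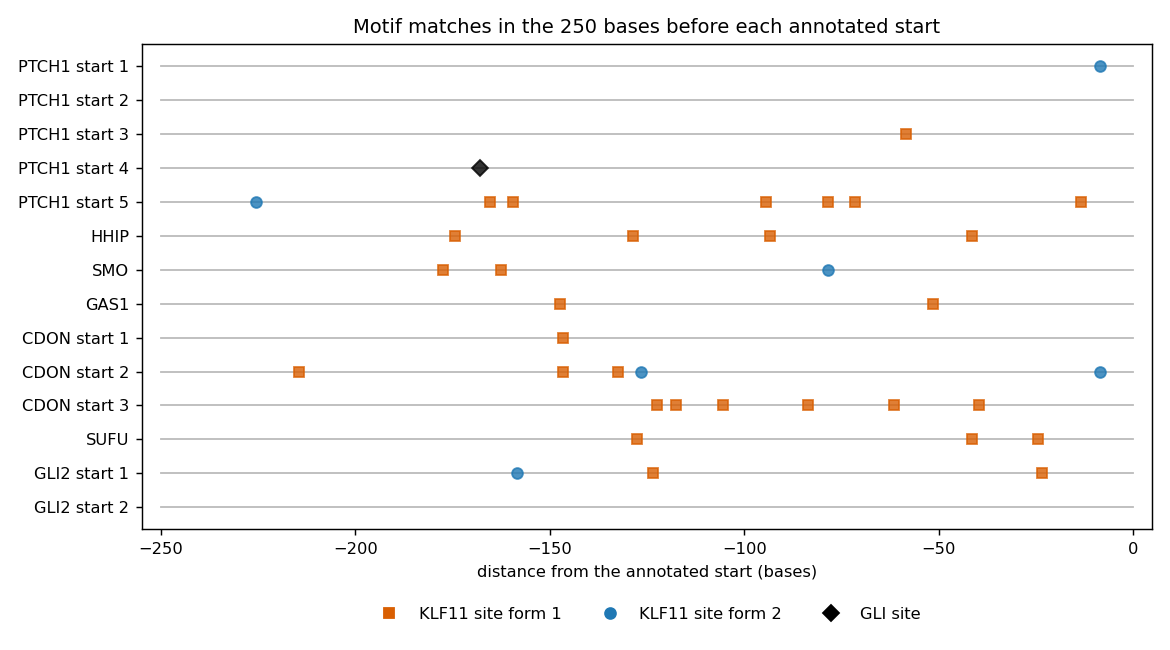
Matches to the searched motifs in the 250 bases before each annotated start of the 7 members with a window. The horizontal axis is the distance from the start in bases, each line is 1 of the 14 windows, squares are CCCCGC (form 1), circles CCCCAC (form 2), and the diamond is the GLI site, which occurs once, in PTCH1.

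Differences are log2 changes against EV from a linear model fitted with limma to all clusters and all 10 arrays. The words rose and fell are kept for a change of at least 1.5-fold whose p, adjusted over all clusters by the Benjamini-Hochberg method, was under 0.05. By this criterion 0 of the 9 members changed with any of the 4 constructs. Over all clusters, 3.99% passed with KLF11, 8.98% with A347S, 5.61% with Δ486 and 0.00477% with EAPP. The methods apply no false discovery rate to EAPP. With 1.5-fold and an unadjusted p under 0.05 the count was still 0 of 9 with each construct, where 4.06%, 9.03%, 5.68% and 0.181% of all clusters passed with KLF11, A347S, Δ486 and EAPP. By an unadjusted p alone, 1, 2, 0 and 2 members were under 0.05, beside 29.4%, 37.6%, 34.3% and 8.73% of all clusters. Without the fold threshold, PTCH1 with KLF11 was the 1 member with an adjusted p under 0.05, where 17.3% of all clusters were. The corresponding background was 28.4% with A347S, 22.4% with Δ486 and 0.00477% with EAPP, with 0 members each.

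**Figure D2:**
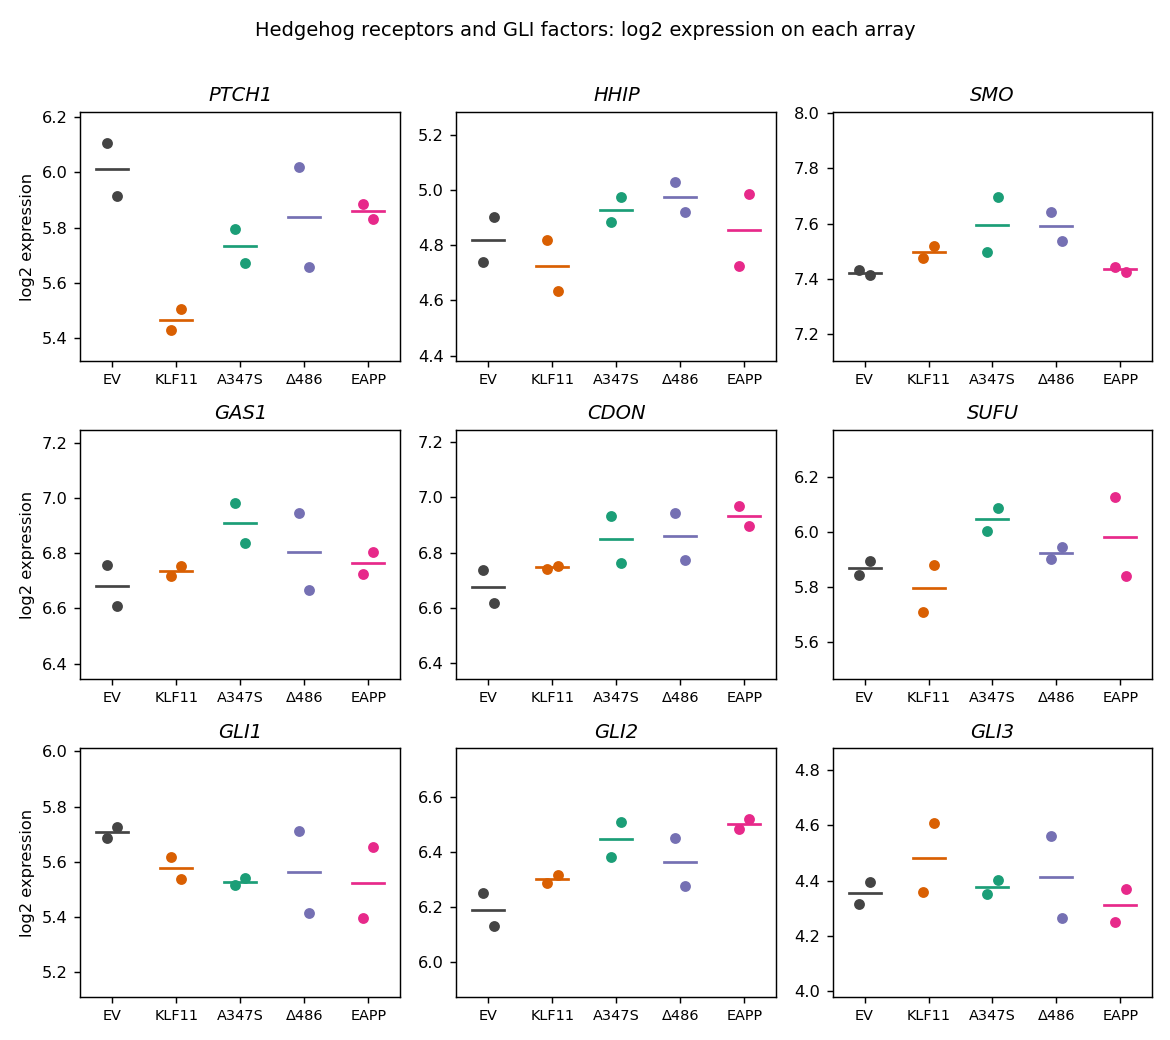
Log2 expression of the 9 members on each array. Points are single arrays, horizontal lines are group means of 2 arrays, and every panel spans the same number of log2 units around its own centre; the KLF11 arrays of PTCH1, at 5.43 and 5.50, lie under all other arrays of that gene.

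PTCH1, the receptor and itself a classical GLI target, had the widest range of group means, 0.55 log2 units. It read 6.11 and 5.92 on the EV arrays, 5.43 and 5.50 with KLF11, 5.80 and 5.67 with A347S, 6.02 and 5.66 with Δ486, and on the EAPP arrays 5.88 and 5.83. Both KLF11 arrays lay below the other 8, an order not counted over all clusters, while the Δ486 arrays overlapped those of EV. With KLF11 the cluster was 0.55 lower than with EV (log2 change -0.55, SE 0.12, 95% interval -0.81 to -0.28, adjusted p = 0.0124). This is a 1.46-fold difference, just short of the fold threshold. The corresponding values were -0.28 with A347S (adjusted p = 0.121), -0.17 with Δ486 (adjusted p = 0.343) and -0.15 with EAPP (adjusted p = 0.786), and none of these passed. The paper lists PTCH1 in a small set of genes that it reports as modulated by wild type KLF11 and by no mutant. In the present fit PTCH1 did not reach the fold threshold with KLF11 either, so that listing was not reproduced by both thresholds. The paper states its own threshold as a fold change of 1.5 in its results and as a log2 change of 1.5 in its methods. By the adjusted p alone, PTCH1 passed with KLF11 and with no mutant. The size of the KLF11 change varied with the arrays used. Without EV replicate 1 it was -0.45, without KLF11 replicate 1 it was -0.51 and without KLF11 replicate 2 it was -0.58. Without EV replicate 2 it was -0.64, past the fold threshold. Such a fit leaves a lone array in a group and loses precision whatever that array read, so its adjusted p cannot show dependence on 1 array. Other clusters moved between the same groups. The summed level of the 6 epithelial markers was 14.11 to 14.19 on the EV arrays and 13.78 to 13.93 on the KLF11 arrays. The brightest, KRT18 and KRT8, weigh most in that sum. On average KRT8, KRT18, KRT19 and CDH1 were lower with KLF11, KRT19 past both thresholds, and EPCAM and KRT7 were higher. The summed mesenchymal markers were also lower, at 12.583 to 12.585 with EV and 12.28 to 12.29 with KLF11. The part of these differences in the PTCH1 value was not tested.

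In the order of group means, PTCH1 ran from 5.47 with KLF11 through 5.74 with A347S, 5.84 with Δ486 and 5.86 with EAPP to 6.01 with EV. No step between neighbours in this order passed the test, with adjusted p = 0.347 for A347S over KLF11, 0.864 between A347S and Δ486, 0.934 between Δ486 and EAPP and 0.786 between EAPP and EV. Against wild type KLF11 itself, the mutants were higher by 0.27 with A347S, 0.37 with Δ486 and 0.39 with EAPP. The last of these, with a 95% interval of 0.12 to 0.66 and an adjusted p of 0.0673, was the nearest to the threshold among 54 comparisons of a member between constructs.

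HHIP, a membrane protein that binds hedgehog ligands and is also a GLI target, lay below the 25th percentile of clusters on the array. Its 10 values ran from 4.63 with KLF11 to 5.03 with Δ486. The changes were -0.10, 0.11, 0.15 and 0.03 with KLF11, A347S, Δ486 and EAPP, with adjusted p of 0.361 or more. Its arrays overlapped those of EV with every construct but Δ486.

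SMO, the transducer, read 7.43 and 7.41 with EV, 7.47 and 7.52 with KLF11, 7.50 and 7.69 with A347S, 7.64 and 7.54 with Δ486, and on the EAPP arrays 7.44 and 7.42. The arrays of KLF11, A347S and Δ486 lay above both EV arrays, and those of EAPP overlapped them. The differences with KLF11, A347S, Δ486 and EAPP were 0.07, 0.17, 0.17 and 0.01, and the smallest adjusted p was 0.161.

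The co-receptors GAS1 and CDON help present the ligand to PTCH1. CDON read 6.74 and 6.62 with EV, 6.74 and 6.75 with KLF11, 6.93 and 6.76 with A347S, 6.94 and 6.77 with Δ486, and on the EAPP arrays 6.97 and 6.90. All 8 arrays of the constructs lay above both EV arrays, and the EAPP mean was the highest. How many of all clusters show such an order was not counted. For a single construct, 39.3% to 63.6% of all clusters did not overlap EV. The change with EAPP was 0.26 (95% interval 0.05 to 0.46), with an unadjusted p of 0.0186 that became 0.463 after adjustment over all clusters. With KLF11, A347S and Δ486 the CDON values were 0.07, 0.17 and 0.18. GAS1 ran from 6.61 on an EV array to 6.98 on an A347S array. Its changes were 0.05, 0.23, 0.12 and 0.08 in the same order of constructs, EAPP last, and the adjusted p was 0.141 with A347S and higher with the others.

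SUFU, the cytoplasmic inhibitor of the GLI proteins, lay between 5.71 on a KLF11 array and 6.13 on an EAPP array. Its changes against EV were -0.07, 0.18, 0.05 and 0.11 with KLF11, A347S, Δ486 and EAPP, none with an adjusted p under 0.255. The Δ486 value turned to -0.031 after quantile normalization and -0.018 after cyclic loess. The arrays of A347S, at 6.00 and 6.09, lay above those of KLF11, at 5.71 and 5.88, by 0.25 on average, with an unadjusted p of 0.0370 and an adjusted p of 0.319.

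Of the factors, GLI1 is an activator and a common readout of the pathway, GLI2 is the main activator that acts first, and GLI3 serves mostly as a repressor. GLI1 read 5.69 and 5.73 with EV, 5.62 and 5.54 with KLF11, 5.52 and 5.54 with A347S, 5.71 and 5.41 with Δ486, and on the EAPP arrays 5.40 and 5.65. All construct arrays lay below both EV arrays except 1 of Δ486, which fell between them. The share of all clusters with such an order was not counted. The group means were nevertheless close, with changes of -0.13, -0.18, -0.14 and -0.18, and the smallest adjusted p was 0.296, with A347S. The 95% intervals, of which the lowest bound was -0.44, do not reach a 1.5-fold loss.

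GLI2 read 6.25 and 6.13 with EV, 6.29 and 6.32 with KLF11, 6.38 and 6.51 with A347S, 6.45 and 6.28 with Δ486, and on the EAPP arrays 6.48 and 6.52. As for CDON, all 8 arrays of the constructs lay above both EV arrays, an order whose share among all clusters was not counted. The order of its means was 6.19 with EV, 6.30 with KLF11, 6.36 with Δ486, 6.45 with A347S and 6.50 with EAPP. The difference from EV was 0.31 with EAPP (95% interval 0.12 to 0.50, unadjusted p = 0.0051, adjusted p = 0.342) and 0.26 with A347S (adjusted p = 0.0519). With KLF11 and Δ486 it was 0.11 and 0.17. The comparisons share the EV arrays, so the common sign in the 4 comparisons is not 4 separate observations. Without 1 array at a time, the adjusted p with A347S ranged from 0.0425 to 0.265. GLI3, also below the 25th percentile of clusters, ran from 4.25 to 4.61, with changes of 0.13, 0.02, 0.06 and -0.04 and arrays that overlapped EV with every construct. Its A347S value turned to -0.016 after quantile normalization and -0.015 after cyclic loess.

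**Figure D3:**
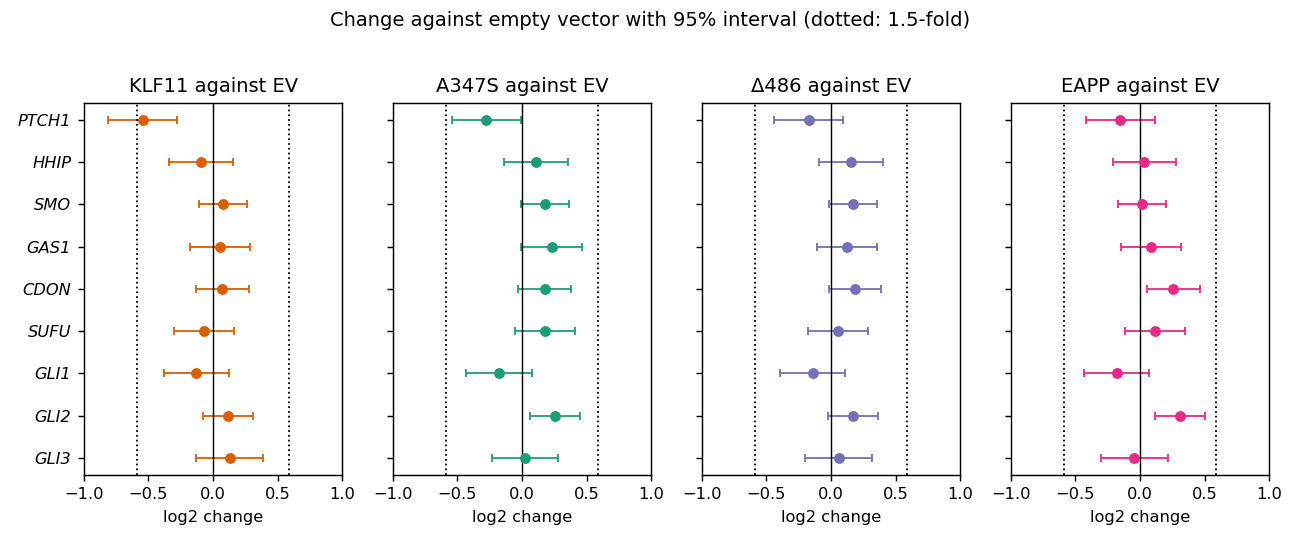
Log2 change of each member against EV with its 95% interval from limma, 1 panel per construct. The solid line marks no change and the dotted lines 1.5-fold either way; the interval of PTCH1 with KLF11, from -0.81 to -0.28, is the one that crosses a dotted line.

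Set side by side, the members differed little from EV. They were higher and lower in the ratio of 5 to 4 with KLF11, 7 to 2 with A347S, 7 to 2 with Δ486 and 6 to 3 with EAPP, and after quantile normalization or cyclic loess the counts with A347S and Δ486 were 6 to 3. The median change of the 9 members was 0.05, 0.17, 0.12 and 0.03, beside -0.02, 0.01, 0.02 and 0.00 over all clusters. The arrays of a construct did not overlap those of EV for 5, 7, 5 and 4 of the 9 members, in the same order, which is close to the background of 57.6%, 63.6%, 61.7% and 39.3% of all clusters. Of 36 intervals of a member against EV, 35 lay within 1.5-fold in both directions, including 32 of 32 for the members other than PTCH1, whose bounds ran from -0.44 to 0.50. Among all clusters, 84.8% had such an interval with KLF11, 77.2% with A347S, 81.3% with Δ486 and 95.9% with EAPP. For 8 of the 9 genes the arrays therefore bound the change in signal below 1.5-fold, as far as the spread between these arrays goes. Most clusters had such an interval with each construct, so this is no trait of the members alone. In brightness GLI3, HHIP, GLI1, PTCH1, SUFU and GLI2 stood at the 9.5th, 15.8th, 26.9th, 30.4th, 32.9th and 41.0th percentiles. The red cell marker HBB stood at the 25.7th, and read 5.12 and 5.13 with EAPP, below its EV arrays at 5.42 and 5.76. The acinar markers PRSS1, CPA1 and CELA3A stood at the 18.2nd, 34.0th and 40.6th. For clusters this near such markers, a bound on the signal may not hold for the RNA, which was not tested.

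Between constructs, 0 of 9 members passed in each of the 6 comparisons. The background there was 2.51% of all clusters for EAPP against KLF11, 6.01% for EAPP against A347S and 3.26% for EAPP against Δ486. For A347S or Δ486 against KLF11 and for A347S against Δ486 limma called 0 clusters in all, with an unadjusted p under 0.05 for 14.4%, 10.5% and 7.43% of them. For EAPP against KLF11 it was 25.2%. Of the members, 2 had an unadjusted p under 0.05 in each comparison of a mutant with KLF11. PTCH1 was one of them each time, joined by SUFU with A347S, HHIP with Δ486 and GLI2 with EAPP. With A347S the unadjusted p of PTCH1 was 0.0499. The comparisons share the KLF11 arrays, so the recurrence of PTCH1 is not a set of separate observations.

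The other genes of the pathway were taken from lists by role, with 71 distinct genes measured in 5 lists outside the 9 members. Of the 71, 9 passed both thresholds with at least 1 construct, which is 12.7%, where 9.51% of all clusters did, and 0 passed with EAPP. By direction over all clusters, 2.21% rose and 1.78% fell with KLF11, 3.63% and 5.35% with A347S, and 2.38% and 3.23% with Δ486. Among the 9 measured genes for ligands and their release, the ligand genes SHH, IHH and DHH did not pass. SHH read 7.33 and 7.11 with EV and between 7.17 and 7.32 on the other arrays. The exception in that list was DISP1, which releases the lipid-modified ligand from the cell. It read 6.37 and 6.50 with EV and 7.14 and 6.95 with KLF11, and rose by 0.61 with KLF11, 0.69 with A347S and 0.65 with Δ486 (adjusted p = 0.00342, 0.000691 and 0.00174). With EAPP its arrays, at 6.66 and 6.81, also lay above EV, and the change of 0.30 did not pass (adjusted p = 0.439). Of 5 other receptors and co-receptors, 4 were measured and 0 passed, and the largest value was 0.30 for the co-receptor BOC with A347S (adjusted p = 0.108).

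The list of GLI processing and ciliary signalling had 28 of 31 genes measured, of which 1 rose and 1 fell with KLF11, 1 rose and 3 fell with A347S, 1 rose and 1 fell with Δ486, and 0 passed with EAPP. The gene that rose with all 3 was EFCAB7, whose product anchors the EVC complex to which SMO binds in the primary cilium. It read 7.35 and 7.47 with EV, 8.82 and 8.63 with KLF11, 8.80 and 8.75 with A347S, 8.25 and 8.50 with Δ486, and on the EAPP arrays 7.80 and 7.55. The changes were 1.32 with KLF11, 1.36 with A347S and 0.96 with Δ486 (adjusted p = 0.000216, 5.39e-05 and 0.000523), and 0.27 with EAPP (adjusted p = 0.561). ARRB1, a beta-arrestin that binds SMO, fell by 0.61 with KLF11, 0.77 with A347S and 0.66 with Δ486. CSNK1D, a casein kinase 1, fell by 0.62 with A347S, and CUL3, the cullin of the ligase that degrades GLI proteins, fell by 0.65. The CSNK1D and CUL3 values were -0.40 each with KLF11 and -0.51 and -0.50 with Δ486, below the fold threshold. The median of the list was -0.09 with KLF11, -0.14 with A347S, -0.09 with Δ486 and -0.01 with EAPP.

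Genes reported as GLI targets in other systems did not move in 1 direction. Of 32, 26 were measured, PTCH1, HHIP and GLI1 included. With KLF11 1 rose and 0 fell, with A347S 1 rose and 2 fell, with Δ486 2 rose and 1 fell, and with EAPP 0 passed. TGFB2, a secreted growth factor, read 8.74 and 8.77 with EV and rose by 0.73 with KLF11, 0.91 with A347S and 0.81 with Δ486. The proliferation factor MYC fell by 0.80 with A347S and 0.65 with Δ486, and its value with KLF11 was -0.52. VEGFA, which drives vessel growth, fell by 0.73 with A347S, with -0.46 and -0.56 with KLF11 and Δ486. BMP4, a secreted morphogen, rose by 0.59 with Δ486 (adjusted p = 0.00565) and stood at 0.03 with KLF11 and 0.17 with A347S. The medians were -0.09, 0.06, 0.04 and -0.05 with KLF11, A347S, Δ486 and EAPP. The ZIC and GLIS factors, whose zinc fingers resemble those of GLI, had 7 of 8 genes measured and 0 passed with any construct.

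**Figure D4:**
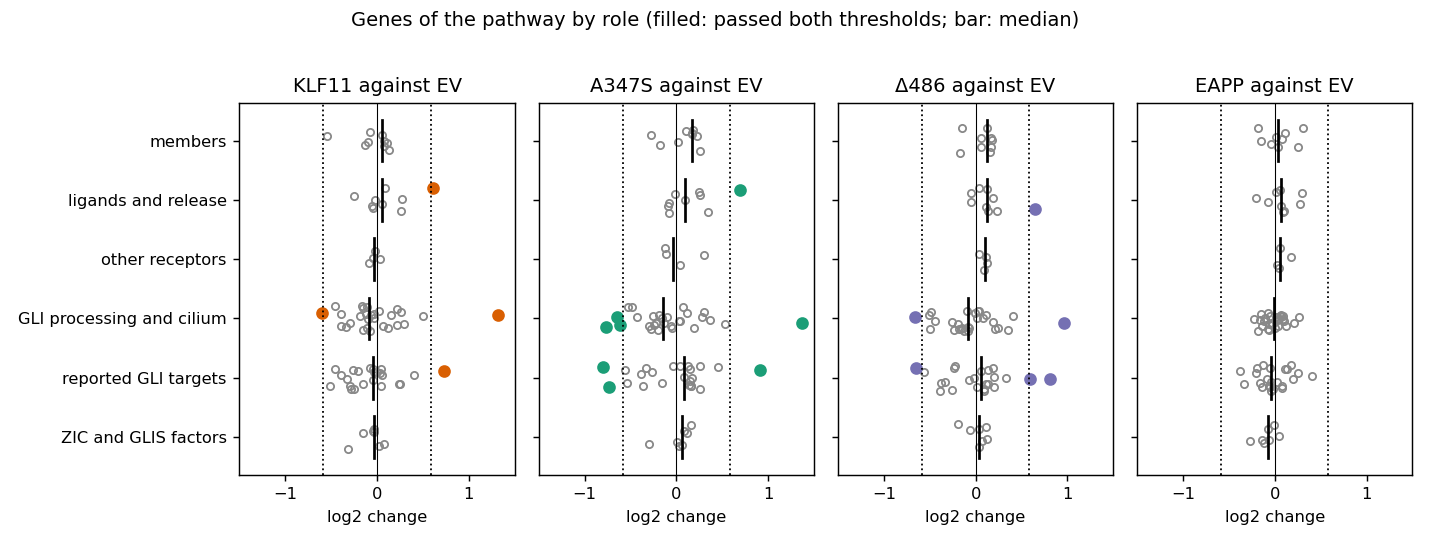
Log2 change against EV for the members and for the other pathway genes by role, 1 panel per construct, with members drawn in their own row alone. Each circle is a gene, filled where it passed both thresholds, short bars are row medians and dotted lines mark 1.5-fold; filled circles occur in 3 rows with KLF11, A347S and Δ486 and in none with EAPP.

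A further list held genes that the study gives as targets of GLI1, as an upstream regulator, in its A347S data. A shorter list of the same kind that it gives for Δ486 lies within these and was not counted apart. The study selected them on these arrays, so their direction is no independent evidence. Of 19 genes, 17 were measured, of which 0 rose and 5 fell with KLF11, 1 rose and 14 fell with A347S, 1 rose and 7 fell with Δ486, and 0 passed with EAPP. The falls with A347S included IMPA2, an inositol monophosphatase, by 1.01, the ductal keratin KRT19 by 1.51, the surface protein CD24 by 1.13 and the quinone reductase NQO2 by 0.77. The study marks GLI1 as inhibited there, a state inferred from the direction of these targets and not from GLI1 RNA. The overlap p it gives for GLI1 did not meet its own threshold. On the same A347S arrays the GLI1 cluster itself, a measure of RNA and not of activity, differed from EV by -0.18 (95% interval -0.43 to 0.08).

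No member was called, so the genes with the most similar profile were sought for PTCH1, the member with the widest range of means. Over the 10 arrays, the highest of 19228 correlations were those of METTL13, a protein lysine methyltransferase, TLE3, a co-repressor of the Groucho family, and ORAI3, a subunit of store-operated calcium channels, each with r = 0.93. ORAI3 read 7.28 and 7.14 with EV, 6.83 and 6.84 with KLF11 and 7.06 to 7.15 on the other 6 arrays, with KLF11 lowest as in PTCH1. The most opposed clusters, added after their values were seen, were RAB27A, a vesicle transport GTPase, at r = -0.95, the ciliary gene MKS1 at -0.94 and the ribosomal protein gene RPS16 at -0.94. MKS1 read 6.78 and 6.73 with EV and 7.37 and 7.28 with KLF11, a difference of 0.57 (adjusted p = 0.00804) that is short of 1.5-fold. All these correlations were picked as extremes of many and share the same arrays and normalization. Among the 36 pairs of members, r ran from -0.61 for SUFU and GLI1 to 0.77 for GLI2 and CDON over the same 10 arrays.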

How the data were processed

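RNA from 10 samples of Panc1, 2 per group in 5 groups, was measured on Affymetrix Human Gene 1.0 ST arrays. The authors subtracted background and normalized by Robust Multiarray Analysis, and the deposited values are log2 expression per transcript cluster, from 1.85 to 14.56. Partek 6.6 is listed in the submitters' processing notes. For the array annotation, a genome build was not given in the sources used here. Normalization between arrays sets their distributions alike, so that a shift common to all genes is not seen, and the number of arrays limits the precision. A cluster's brightness depends on its probes, so the members' levels were not compared with each other, and the percentiles given for markers rank brightness on the array, not amounts of RNA.

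Of 28869 clusters, 20961 had a symbol and were tested, 1732 of them with several symbols and never named, and 7908 without a symbol were left out of the main fit. The gene numbers of 19198 clusters matched RefSeq, and 0 names changed. The model, in limma 3.58.1 under R 4.3.3, held a mean for each of 5 groups over the 10 arrays, with 5 residual degrees of freedom and 4.54 from moderation. The thresholds were an adjusted p under 0.05 and 1.5-fold. The pipeline was tested on simulated data with 200 of 20961 clusters changed for each construct. All constructs were drawn from the same means and spread, so differences between them reflect the random draw. Of simulated 1.5-fold changes, 31.5% to 46.5% were called, and 54% to 67.5% without the fold threshold. The estimate of a true 1.5-fold change can fall on either side of that threshold. In the data more clusters passed with KLF11, A347S and Δ486 and fewer with EAPP, which alters the adjustment, so these shares may not carry over. At 2-fold, both thresholds called 90.5% to 93.5%. A true change near 1.5-fold would thus often be missed. Summed marker levels are log2 of the sum of the unlogged values.

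The members and lists were chosen with earlier results of these data known. The genes named are the 9 members, KLF11, up to 4 genes with the smallest p among those called in each list, the 3 clusters most correlated with PTCH1, and cell type markers. SHH, IHH, DHH and BOC were added after their values were seen. Some list genes are not reported here, among them CSNK1E, IGF2, IGFBP6, BMI1, RAB34, EZR and MRPS6, which shared a cluster with another symbol. Alternatives covered the thresholds, the moderation, the scaling, leaving out dim clusters, adding those without a symbol, averaging clusters of a gene, a replicate block and the removal of single arrays. The chromatin immunoprecipitation and qPCR were not analysed here.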

Additional observations from a re-analysis of the deposited data

How the results depend on the processing

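The count of members that passed against EV was 0 with each construct under every alternative run, except with KLF11, where PTCH1 passed without a fold threshold (1 member) and where leaving out single arrays gave 0 to 1, with 1 without EV replicate 2. PTCH1 with KLF11 kept its sign throughout, with an adjusted p of 0.0682 without moderation and 0.186 by the methods' t-test. No common pairing of same-numbered arrays was seen, since only 1 of 10 correlations of their deviations was above 0.1 (range -0.35 to 0.15). The largest in size, -0.35 between Δ486 and EAPP, was negative, so arrays of these groups shared a difference in opposite order. Its source was not tested. With the replicate block, 0 members passed and PTCH1 with KLF11 had an adjusted p of 0.0104.

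Pathway list genes passing against EV numbered 9. The count was 0 at an absolute log2 change of 1.5, 31 without a fold threshold, 0 by the methods' t-test, and 7 to 13 with single arrays left out. The KLF11 cluster was higher by 0.77 with KLF11 than with EV. The value of 0.77 did not pass at a log2 change of 1.5, without moderation (adjusted p = 0.0711) or by the methods' t-test (adjusted p = 0.345), and it ranged from 0.46 to 1.08 with single arrays left out. It also did not pass without KLF11 replicate 1 (adjusted p = 0.0527), without KLF11 replicate 2 (adjusted p = 0.0507) or without EV replicate 2, where 0.46 is under the fold threshold.

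Of 784 values of a single member under an alternative, 16 changed sign, all where the value was 0.17 or less in size. SUFU with Δ486 became -0.031 with quantile normalization and -0.018 with cyclic loess, and GLI3 with A347S became -0.016 and -0.015. Leaving out single arrays gave ranges that cross 0 for PTCH1 with Δ486 (-0.36 to 0.0083), SUFU with KLF11 (-0.16 to 0.012) and EAPP (-0.030 to 0.26), GLI1 with Δ486 (-0.29 to 0.0051), GLI3 with A347S (-0.018 to 0.062), Δ486 (-0.090 to 0.21) and EAPP (-0.10 to 0.016), HHIP with EAPP (-0.10 to 0.16), and GAS1 with KLF11 (-0.022 to 0.13) and Δ486 (-0.015 to 0.26). Causes were not tested. Removing the clusters below the 25th percentile leaves no value for GLI3 and HHIP. Where an array is left out, the lone array's spread is taken from the other groups.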
